A study of Mus musculus with 2 samples.

Results

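The synaptotagmin genes described here are Syt1, Syt2, Syt3, Syt4, Syt5, Syt6, Syt7, Syt11, Syt13 and Syt17, chosen by gene symbol, which makes 10 of the 55536 annotated genes. They were measured by total RNA sequencing in left cerebral cortex taken at 18 to 20 months of age from male mice of the strain B6CASTF1/J, the first hybrid generation of B6 with CAST. The series is 1 group of 2 libraries, labelled biological replicates 1 and 2, with no treatment, no second age and no second tissue. Both libraries carry the same donor identifier, and nothing in the labels says whether they came from separate animals, so the spread between them may be technical. The depth over annotated genes was 22827984 expected counts for replicate 1 and 29897486 for replicate 2. With 1 group there is no contrast between conditions, and no p-value is given anywhere.

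Synaptotagmins are vesicle proteins with a pair of C2 domains, the folds that in several members bind calcium ions and membrane phospholipid. The fast members sit on synaptic vesicles and trigger transmitter release within a moment of calcium entry through their contact with the SNARE fusion complex. Other members act more slowly, work on dense core vesicles or the plasma membrane, or have lost the residues that hold calcium. A cortex sample is a mixture of neurons and glia, so a lower level cannot be told apart from fewer cells that make the RNA. Neuronal RNA was looked for with 5 neuronal markers, among them Slc17a7, Map2 and Rbfox3, whose median level was 175 TPM (transcript abundance per length on a fixed total) in replicate 1 and 170 in replicate 2. Glial RNA was present too, with medians of 121 and 119 TPM for 4 oligodendrocyte markers and 44.8 and 47.1 for 4 astrocyte markers. Of the latter, Slc1a2 was at 740 and 655 TPM, above each of the neuronal markers.

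All 10 genes were detected at 1 TPM or more in both libraries, and all 10 had a mean count of at least 100. TPM divides reads by transcript length and scales each library to the same total, so it allows levels of different genes to be set side by side. Together the 10 genes held 1302 TPM in replicate 1 and 1235 TPM in replicate 2, a mean of 1269 ± 47.8 (SD, n = 2). Syt1, Syt11 and Syt7 made up 71.5% of that sum in replicate 1 and 69.4% in replicate 2. The mean level of the first gene, Syt1, was 67.7 times that of the last, Syt6.

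**Figure D1:**
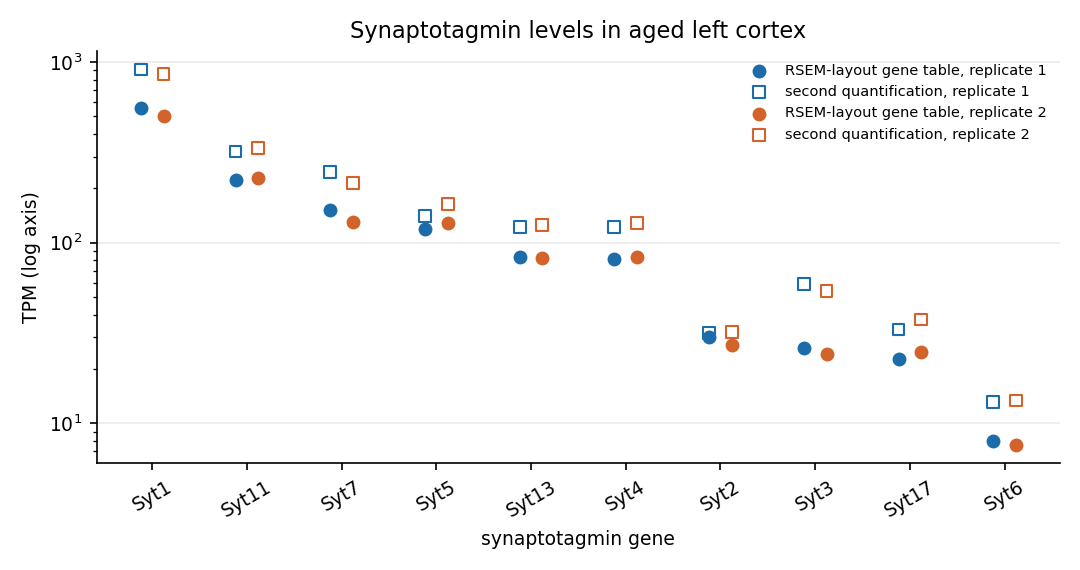
TPM of each synaptotagmin on a log axis, with filled circles for the gene table in the RSEM column layout, open squares for the second quantification, and 1 colour for each replicate. The 2 replicates lie close together for every gene, Syt1 stands at the top at 557 and 500 TPM, and Syt3 stands above Syt2 only in the second quantification.

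Among the fast calcium sensors, Syt1 was by far the most abundant. Syt1 encodes the main trigger of synchronous release in forebrain neurons and lies on chromosome 10 (ENSMUSG00000035864.14, 108497650 to 109010982, minus strand, GRCm38). It was measured at 557 TPM in replicate 1 (33320 expected counts) and 500 TPM in replicate 2 (43449 counts), a mean of 528 ± 39.9 TPM (SD, n = 2). Its share of the summed TPM of the 10 genes was 42.7% and 40.5%. Its mean was 2.35 times that of Syt11, the next gene, and the deposited TPM intervals of the 2 genes did not overlap in either library. Among the 22015 annotated nuclear protein-coding genes Syt1 ranked 48 by mean TPM.

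Transcripts of Syt1 come from annotated starts that lie apart, and the sequence before each is shown because the quantifications divided Syt1 between them. The upstream start, at positions 109010962 to 109010982, serves Syt1-201, Syt1-202 and Syt1-204. The downstream start, at 109009100 to 109009111, serves Syt1-203 and Syt1-206. The windows below are from RefSeq (GRCm38.p6), read on the minus strand, 5′ to 3′, with each CG pair in capitals. The upstream window ends 7 bases short of its RefSeq start, at the edge of the annotated first exon of Syt1-201.
Syt1 upstream start, chr10:109010983-109011225: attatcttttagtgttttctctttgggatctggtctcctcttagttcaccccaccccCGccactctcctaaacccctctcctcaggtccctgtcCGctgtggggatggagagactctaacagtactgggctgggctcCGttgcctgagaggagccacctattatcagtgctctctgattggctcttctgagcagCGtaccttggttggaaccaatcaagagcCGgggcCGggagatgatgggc
Syt1 downstream start, chr10:109009112-109009361: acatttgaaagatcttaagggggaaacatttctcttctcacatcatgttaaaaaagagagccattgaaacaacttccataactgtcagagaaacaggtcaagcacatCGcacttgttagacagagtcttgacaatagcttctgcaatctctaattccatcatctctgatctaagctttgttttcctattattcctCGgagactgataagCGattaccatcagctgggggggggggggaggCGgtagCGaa
Over the full 250 bases before the RefSeq start, the upstream window was 56.4% G and C with 8 CG pairs, and the downstream window 42.8% with 5 pairs. The letters GGGCGG, a GC box searched on both strands, occurred in the full upstream window, partly within the bases not printed, and not in the downstream one. They occurred in 32.7% of all 32851 RefSeq windows of the same length.

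Shares of starts are sums over the estimates of their transcripts, and start use itself was not measured. By transcript assignment, the upstream start of Syt1 had most of its RNA. It held 83.6% of Syt1 TPM in replicate 1 and 87.9% in replicate 2, and 72.3% and 76.0% in the second quantification. The downstream start held 13.8% and 11.1% of TPM, or 23.6% and 19.8% in the second quantification. Nearly all of this was Syt1-206, a short transcript annotated as noncoding, whose model is marked incomplete. Syt1-206 is 1113 bases long against 4745 for Syt1-201, and the downstream start had 3.47% and 2.67% of the expected counts of Syt1. A further annotated start, that of Syt1-205 at 108636964, held 2.65% and 1.08% of TPM, and 4.11% and 4.17% in the second quantification. The share of Syt1 in noncoding transcripts was 17.6% in replicate 1 and 12.8% in replicate 2 by TPM, 28.8% and 24.5% by TPM of the second quantification, and 4.89% and 3.34% by expected counts.

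Syt2, the close relative that serves as fast sensor in the brainstem and in parvalbumin interneurons, was far lower. It lies on chromosome 1 (ENSMUSG00000026452.15, 134646677 to 134762593, plus strand) and was measured at 30.1 TPM in replicate 1 (1795 counts) and 27.1 TPM in replicate 2 (2223 counts), a mean of 28.6 ± 2.13. The coding sequence of Syt2 matched that of Syt1 at 74.2% of the longer sequence, the highest identity of the 45 pairs. Even so, only 2 of the 7621 stretches of 31 bases found in Syt2 transcripts occurred in another synaptotagmin, and none of those of Syt1 did. Syt2 overlaps Ppp1r12b on the opposite strand, which was measured at 39.9 and 33.8 TPM. Whether the counting used strand is not stated in the sources used here, so the level of Syt2 is uncertain. Of the 7621 stretches, 14 occurred in transcripts of any other gene on either strand, with the most, 9, in Strn. Unspliced RNA of Ppp1r12b was not part of that search, and its part in the level of Syt2 was not tested. Pvalb, a marker of the interneuron class named above, stood at 41.6 TPM in replicate 1 and 39.3 in replicate 2, and 1 of 4 cerebellar and hindbrain markers was detected in both libraries, with a list median of 0.125 and 0.155 TPM.

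Syt2 also has starts far apart, and its windows are shown for the same reason, again with CG pairs in capitals (RefSeq, GRCm38.p6, plus strand). The upstream RefSeq start lies 65 bases from the nearest GENCODE start.
Syt2 upstream start, chr1:134646362-134646611: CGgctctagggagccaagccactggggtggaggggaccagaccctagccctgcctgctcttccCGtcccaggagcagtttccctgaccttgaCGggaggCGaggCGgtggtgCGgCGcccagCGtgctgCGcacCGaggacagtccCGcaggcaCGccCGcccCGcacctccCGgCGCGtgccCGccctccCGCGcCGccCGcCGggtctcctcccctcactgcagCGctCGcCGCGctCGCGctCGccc
Syt2 downstream start, chr1:134709050-134709299: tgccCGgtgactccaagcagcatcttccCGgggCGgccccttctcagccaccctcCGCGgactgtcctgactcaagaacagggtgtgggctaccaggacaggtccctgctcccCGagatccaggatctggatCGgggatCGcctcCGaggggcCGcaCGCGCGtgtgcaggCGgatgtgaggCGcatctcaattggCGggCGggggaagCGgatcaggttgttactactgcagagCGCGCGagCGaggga
Both windows were richer in CG pairs than those of Syt1, with 30 pairs and 76% G and C upstream and 22 pairs and 66.4% downstream, against a median of 6 pairs over all windows. Both held GGGCGG. The RefSeq table had windows for 5 of the synaptotagmins considered, Syt1, Syt2, Syt3, Syt6 and Syt11, 9 windows in all. GGGCGG occurred in 7 of the 9, against 32.7% of all windows, but windows of Syt6 overlap, so these are not 7 separate matches. TATAAA, the TATA box letters searched on both strands, occurred in 0 of 9, against 12.4% of all windows.

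By transcript assignment, the downstream start of Syt2, that of Syt2-201 alone, led in all estimates, by a margin that depended on the unit. By TPM it held 54.0% in replicate 1 and 50.5% in replicate 2, whereas the upstream start, at 134646677 to 134646681, held 44.8% and 48.6%. In the second quantification the downstream start held 68.6% and 60.7%. By expected counts it held 91.4% and 86.4%. Which upstream transcript led depended on the table and the unit. Syt2-203, an incomplete model of 383 bases, was at 11.4 and 9.59 TPM on 47.9 and 56.4 expected counts, and at 0 and 2.45 TPM in the second quantification. The full-length Syt2-204, with the same coding length of 1266 bases as Syt2-201, was at 2.15 and 3.58 TPM on 105 and 244 expected counts, and at 9.91 and 10.1 TPM in the second quantification.

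**Figure D2:**
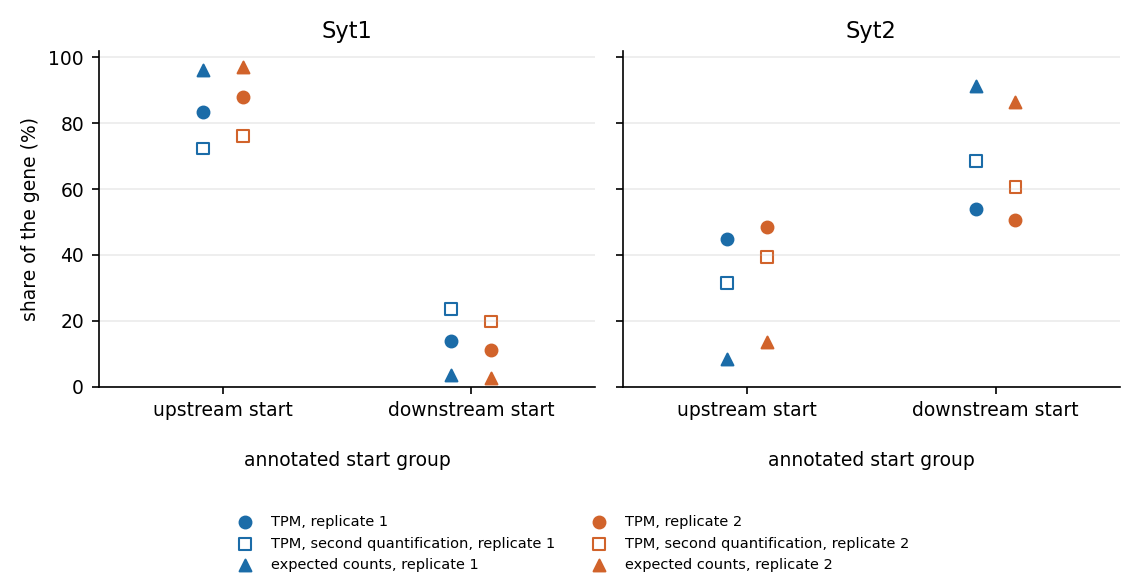
Share of Syt1 (left) and Syt2 (right) assigned to transcripts of the upstream and downstream annotated starts, in percent of TPM, of TPM in the second quantification and of expected counts, with 1 colour for each replicate. The upstream start of Syt1 leads in all estimates, while the downstream start of Syt2 lies near the upstream one by TPM (54.0% and 50.5%) and far above it by counts (91.4% and 86.4%). The starts of Syt1-205 and Syt2-202 are not drawn.

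Syt5, a sensor placed on synaptic and dense core vesicles, was the fourth gene by level. It lies on chromosome 7 (ENSMUSG00000004961.7, 4539765 to 4547541, minus strand) and was at 119 TPM in replicate 1 (2298 counts) and 128 TPM in replicate 2 (3626 counts), a mean of 124 ± 6.96. Its deposited interval lay below that of Syt7 in replicate 1 and overlapped it in replicate 2, so those neighbours were not separated. It stood 1.49 times above Syt13, the next gene, with separate intervals in both libraries. Its leading transcript, Syt5-201, held 74.2% and 78.7% of TPM, but 97.6% and 99.1% in the second quantification. The remainder was mostly Syt5-202, an incomplete model at 25.94 and 24.96 TPM that the second quantification listed at 0.

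Syt7, the high-affinity sensor tied to asynchronous release, facilitation and lysosome fusion, followed Syt11 by mean level. It lies on chromosome 19 (ENSMUSG00000024743.16, 10389090 to 10453180, plus strand) and was at 152 TPM in replicate 1 (8720 counts) and 129 TPM in replicate 2 (10746 counts), a mean of 141 ± 16.2. It stood below Syt11 in both libraries with separate intervals, by a factor of 1.60 in the mean. Replicate 2 was the lower library for Syt7 by TPM.

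Syt7 has 15 annotated transcripts, 9 of them coding, and the coding ones differ in the linker between the membrane anchor and the C2 domains. That linker varies by 4 optional exons, called A to D here in genomic order. Exon A spans 10421757 to 10421888 (132 bases), B 10422785 to 10423012 (228 bases), C 10426299 to 10426667 (369 bases) and D 10430338 to 10430460 (123 bases), and each length is a multiple of 3, so that each can be skipped without a change of frame. Exons A, B and D are printed because the transcript families below turn on them, in capitals with 15 lower-case bases of the neighbouring coding exons as spliced in 1 transcript. The junction without any of them is that of Syt7-201. Sequences are from the GENCODE M21 transcripts (GRCm38), 5′ to 3′.
Syt7 exon A in Syt7-204: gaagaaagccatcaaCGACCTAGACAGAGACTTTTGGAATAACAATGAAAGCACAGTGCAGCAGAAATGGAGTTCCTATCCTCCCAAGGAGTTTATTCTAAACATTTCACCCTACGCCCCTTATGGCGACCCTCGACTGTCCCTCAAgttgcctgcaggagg
Syt7 exon B in Syt7-210: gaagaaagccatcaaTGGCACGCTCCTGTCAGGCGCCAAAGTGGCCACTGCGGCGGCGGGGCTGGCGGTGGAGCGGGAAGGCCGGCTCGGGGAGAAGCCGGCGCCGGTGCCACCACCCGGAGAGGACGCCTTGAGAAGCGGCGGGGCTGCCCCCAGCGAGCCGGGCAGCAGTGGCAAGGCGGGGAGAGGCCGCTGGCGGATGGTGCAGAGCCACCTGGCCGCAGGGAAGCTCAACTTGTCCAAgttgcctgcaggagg
Syt7 exon D in Syt7-214: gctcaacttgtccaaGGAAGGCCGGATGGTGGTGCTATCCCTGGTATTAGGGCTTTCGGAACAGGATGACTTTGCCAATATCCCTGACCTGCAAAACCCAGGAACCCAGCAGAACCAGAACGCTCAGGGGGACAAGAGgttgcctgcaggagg
Syt7 junction without optional exons: gaagaaagccatcaagttgcctgcaggagg
The printed exon D follows exon B in Syt7-214, so its left flank is the end of exon B and not of the constant exon.

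Exons A, C and D were each in most Syt7 coding RNA by TPM, and exon B was in a minority. Exon A was in 70.6% of coding Syt7 TPM in replicate 1 and 73.4% in replicate 2, exon C in 72.9% and 74.4%, and exon D in 73.5% and 74.9%. Exon B was in 19.9% and 21.6%. The second quantification gave lower shares for A (57.5% and 63.3%), C (57.0% and 62.7%) and D (57.4% and 62.9%) and a like share for B (19.2% and 19.1%). In all 4 estimates exon B was the least included of the 4.

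By transcript, Syt7-202 with exons A, C and D held 54.4% of coding Syt7 TPM in replicate 1 and 56.7% in replicate 2. The short form Syt7-201, with none of the 4, followed at 23.5% and 20.7%, and Syt7-203, with all 4, at 16.2% and 16.7%. The order of these 3 by TPM was the same in both libraries and in the second quantification, where they held 47.5% and 49.99%, 32.7% and 30.3%, and 9.43% and 12.8%. In replicate 2, however, the deposited intervals of Syt7-201 and Syt7-203 overlapped, and Syt7-203 had more expected counts, 779 against 720. Syt7-210, with exon B alone, was at 3.04% and 4.40%, and its deposited intervals reached from under 1 TPM to 7.08 and 6.17 TPM. Syt7-205, with C and D, was listed at 0 by the second quantification. The annotation gives a long 3′ end to Syt7-202 alone, 6624 bases in all against 1605 for Syt7-201. By expected counts, which are not divided by length, exon A was in 89.5% and 90.6% and exon B in 9.09% and 9.60%. The part of transcript length in these shares was not tested.

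**Figure D3:**
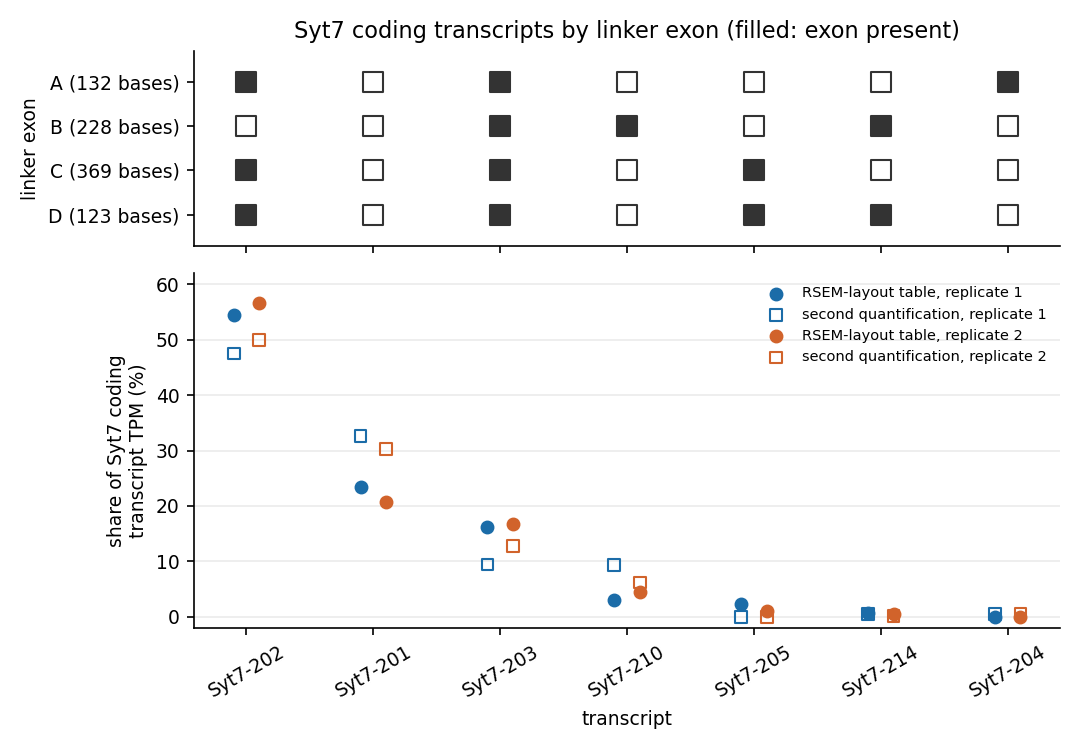
Upper panel, the optional linker exons of each Syt7 coding transcript, with filled squares for exons present; lower panel, each transcript's share of coding Syt7 TPM in percent, with filled circles for the RSEM-layout table, open squares for the second quantification and 1 colour for each replicate. Syt7-202 (A, C, D) leads in all 4 estimates, at 54.4% and 56.7% in the RSEM-layout table, and Syt7-201 without the 4 exons is next.

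Syt3 and Syt6, plasma membrane or endosomal synaptotagmins joined as disulfide-linked dimers, were low. Syt3 lies on chromosome 7 (ENSMUSG00000030731.13, 44384102 to 44400187, plus strand) and was at 26.0 TPM in replicate 1 (804 counts) and 24.3 TPM in replicate 2 (1093 counts), a mean of 25.2 ± 1.17. Its intervals overlapped those of Syt2 and of Syt17 in both libraries, and the intervals of Syt2 and Syt17 were apart in replicate 1 only. The second quantification put Syt3 at 58.9 and 53.9 TPM, above Syt2 at 31.5 and 31.995, which reverses their order. Part of that Syt3 level rested on short incomplete models with few counts. Syt3-204 (442 bases) was at 15.1 and 10.2 TPM on 22.7 and 20.1 estimated counts. Syt3-205 (539 bases) was at 7.28 and 8.10 TPM on 17.2 and 25.4 counts. The leading Syt3-202 was at 29.2 and 30.3 TPM there.

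Syt6, also known from the sperm acrosome, was the lowest of the 10 genes. It lies on chromosome 3 (ENSMUSG00000027849.18, 103575231 to 103645569, plus strand) and was at 7.97 TPM in replicate 1 (439 counts) and 7.64 TPM in replicate 2 (545 counts), a mean of 7.81 ± 0.23. Syt17, the gene above it, was 3.04 times higher with separate intervals in both libraries. Syt6 was the only one of these genes whose leading transcript was not the same in all 4 estimates. Syt6-206, annotated as a target of nonsense-mediated decay, led at 36.9% and 33.2% of TPM. In the second quantification it led replicate 2 at 26.2%, beside the coding Syt6-209 at 23.7%, and the coding Syt6-201 led replicate 1 at 36.7%. Syt6-206 was at only 2.94 and 2.54 TPM, and its deposited intervals overlapped those of Syt6-201 in both libraries. Transcripts of a noncoding class, decay targets among them, together held 41.9% and 33.2% of Syt6 TPM, and coding ones held the rest. Of the 31-base stretches in Syt6 transcripts, 8.03% occurred in another gene, all of them in Atg4a-ps, which was at 0.11 and 0.04 TPM.

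Syt11 and Syt4 are the pair in which an aspartate of the first C2 domain is replaced by serine, so that this domain does not bind calcium in the usual way. Syt11, which acts in endocytosis and vesicle recycling, was the second gene by level. It lies on chromosome 3 (ENSMUSG00000068923.14, 88744700 to 88775164, minus strand) and was at 222 TPM in replicate 1 (13561 counts) and 227 TPM in replicate 2 (19227 counts), a mean of 225 ± 3.22. Syt4, an activity-regulated protein of Golgi and dense core vesicles, lies on chromosome 18 (ENSMUSG00000024261.6, 31437808 to 31447406, minus strand) and was at 81.8 TPM (4610 counts) and 83.5 TPM (6555 counts), a mean of 82.6 ± 1.22. Their coding sequences matched at 62.5% of the longer one. Syt11 was the higher of the pair in both libraries, and Syt4 had 1 annotated transcript. An antisense gene, Gm26658, which shares 12.3% of the 31-base stretches of Syt4, was at 0.11 and 0.08 TPM. Of the stretches of Syt11, 7.23% occurred in other genes, with the most, 224 of 5228, in 1500004A13Rik. The part of shared stretches in the level of Syt11 was not tested.

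Of the 4 genes whose starts were grouped, Syt1, Syt2, Syt6 and Syt11, the quantifications differed most over a start of Syt11. Syt11-201, which starts at 88772599, held 85.4% and 85.2% of Syt11 TPM in the RSEM-layout table and 59.2% and 65.7% in the second quantification. The start at 88775152 to 88775164, mainly Syt11-203, held 0.62% and 0.46% in the first and 31.03% and 27.2% in the second. Both transcripts have the same coding length, 1290 bases.

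Syt13 and Syt17 lack features of the classical members. Syt13, a gene of dense core vesicle and endocrine cells whose C2 domains do not hold the calcium-binding residues, lies on chromosome 2 (ENSMUSG00000027220.2, 92915098 to 92956058, plus strand). It was at 83.6 TPM in replicate 1 (4548 counts) and 82.2 TPM in replicate 2 (6232 counts), a mean of 82.9 ± 0.95. Syt13 and Syt4 were not separated in either library and changed places between them. Syt17, which has no membrane-spanning segment, lies on chromosome 7 (ENSMUSG00000058420.8, 118380717 to 118448222, minus strand) and was at 22.8 TPM (868 counts) and 24.7 TPM (1317 counts), a mean of 23.7 ± 1.38. Its leading transcript Syt17-201 held 67.5% and 74.5% of TPM, and 81.7% and 85.7% in the second quantification.

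In the order Syt1, Syt11, Syt7, Syt5, Syt13, Syt4, Syt2, Syt3, Syt17, Syt6, intervals separated 5 of the 9 neighbouring pairs in both libraries. Those pairs were Syt1 over Syt11, Syt11 over Syt7, Syt5 over Syt13, Syt4 over Syt2 by a factor of 2.89, and Syt17 over Syt6. Over all 45 pairs, 40 were separated in both, and the other 5 were Syt7 with Syt5, Syt13 with Syt4, Syt2 with Syt3, Syt2 with Syt17 and Syt3 with Syt17. The sources used here do not give the level of the deposited intervals, and in each library the TPM of 4 members lay above its own interval, which surrounds the posterior mean.

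Transcript choice was shared between the replicates. The 10 genes have 56 annotated transcripts, 17 of them of a noncoding class and 10 with incomplete models, and 8 genes have more than 1 transcript. In 7 of these 8 the same transcript led in both libraries and both quantifications, against 65.0% of 11661 nuclear genes of the same kind. A list of 8 genes is too short to be set apart from that background. The median share of the leading transcript was 61.6%, from 35.1 ± 2.58% for Syt6-206 to 85.3 ± 0.12% for Syt11-201. Syt3-202 held 50.8 ± 4.70%.

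**Figure D4:**
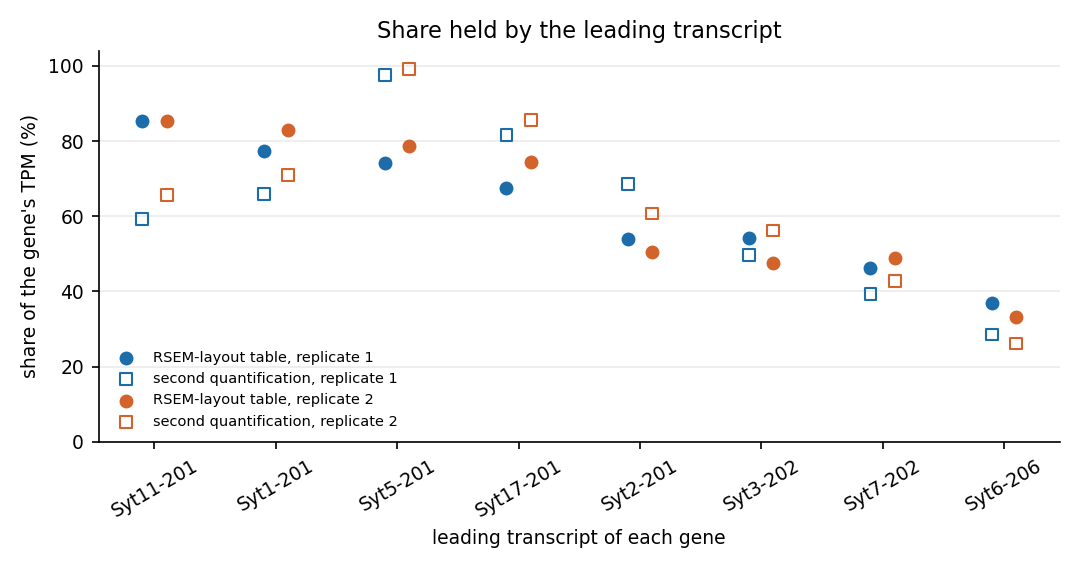
Share of each gene's TPM held by its leading transcript, in percent, for the 8 synaptotagmins with more than 1 transcript, with filled circles for the RSEM-layout table, open squares for the second quantification and 1 colour for each replicate. Syt11-201 is at 85.4% and 85.2% in the first and 59.2% and 65.7% in the second, and Syt5-201 at 74.2% and 78.7% in the first and 97.6% and 99.1% in the second.

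The replicates were compared on expected counts scaled by TMM, as the log2 ratio of replicate 2 over replicate 1 with a 95% exact counting interval. A gene counts here as different beyond counting error where that interval excludes 0. That held for 7 of the 10 synaptotagmins, 6 higher in replicate 2 and 1 lower. Of 11647 nuclear protein-coding genes with a mean count of at least 100, 42.6% differed in this sense, 28.4% higher and 14.2% lower. Whether an interval excludes 0 depends on depth, and the background was not matched for it. The synaptotagmins had 439 to 43449 expected counts in a library, so 7 of 10 is not shown to be an excess. The same limit holds for the gene lists set beside these shares below. The directions by count ratio and by TPM were not the same for Syt1 and Syt13, which were among the 6 although their TPM was lower in replicate 2. They also differed for Syt3, whose ratio was 0.10 with an interval that included 0, while its TPM was lower in replicate 2. No synaptotagmin differed by 1.5-fold or more, against 1.42% of the 11647 genes. The intervals come from the 2 counts alone and cover counting error only, on the assumption that reads are independent. These reads carry no molecular identifiers, so copies of the same molecule cannot be told apart from separate molecules. To the extent that reads are such copies, which was not measured, the intervals are too narrow even for counting error. At this depth they are narrow, from 0.02 to either side for Syt1 to 0.18 for Syt6.

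Syt5 had the largest ratio, 0.31 (interval 0.24 to 0.39), followed by Syt17 at 0.26 (0.13 to 0.38). Syt4 was at 0.16 (0.11 to 0.22), Syt11 at 0.16 (0.13 to 0.19), Syt13 at 0.11 (0.06 to 0.17) and Syt1 at 0.04 (0.02 to 0.06). Syt7 was the gene that was lower in replicate 2, at -0.04 (-0.08 to -0.001). The intervals of Syt3, Syt2 and Syt6 included 0. The median over the 10 was 0.11 on the log2 scale, beside 0.05 over the 11647 genes. Scaling by spike-ins moved the median of all genes by -0.13, and 3 members were then higher and 3 lower, with 7.29% of all genes higher and 33.9% lower. Under that scaling Syt1 was at -0.09 and Syt13 at -0.01, so their direction turned, and scaling by total counts also put Syt1 below 0, with 19.4% of all genes higher and 19.4% lower. Syt7 was at 0.0005 in the second quantification. Either scaling shifts all genes by the same amount, so the order of the members by ratio is unchanged.

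**Figure D5:**
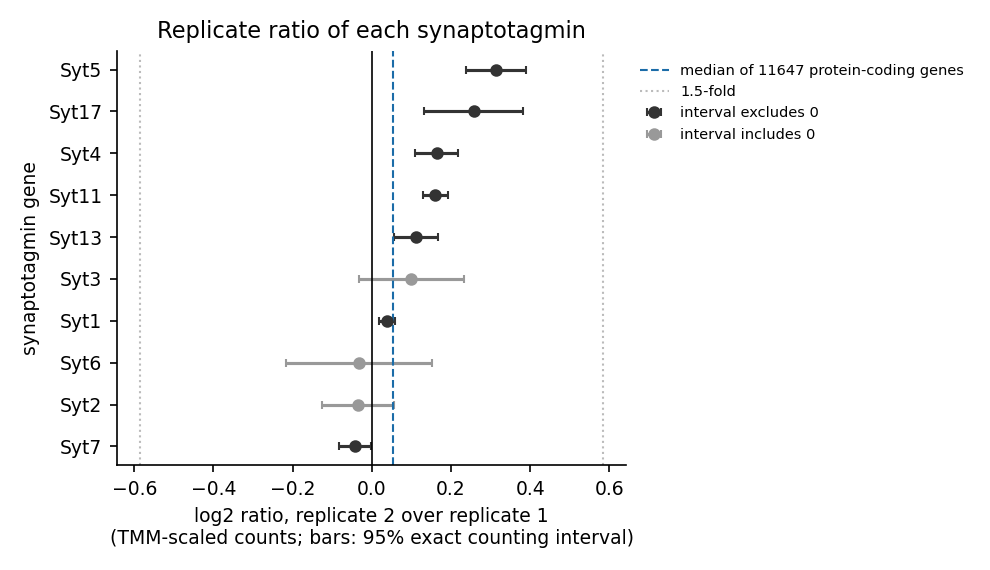
Log2 ratio of replicate 2 over replicate 1 for each synaptotagmin from TMM-scaled counts, with bars for the 95% exact counting interval, a dashed line for the median of 11647 protein-coding genes and dotted lines at 1.5-fold. All 10 genes lie inside the 1.5-fold lines, from -0.04 for Syt7 to 0.31 for Syt5.

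Markers of the striatum, which lies beneath the cortex, moved between the libraries. All 8 listed, among them Ppp1r1b, Penk, Drd1 and Drd2, were higher in replicate 2 by 1.5-fold or more, with list medians of 11.9 and 23.4 TPM for replicates 1 and 2 and a median log2 ratio of 1.11. Their summed level was 177 TPM in replicate 1 and 375 TPM in replicate 2, and none was at 0. In the other 9 marker lists, of neurons, inhibitory neurons, deep cortical layers, astrocytes, oligodendrocytes, microglia, endothelium, thalamus and cerebellum with hindbrain, no marker with a mean count of at least 100 passed 1.5-fold. The part of this in the synaptotagmin ratios was not tested.

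The remaining synaptotagmins in the annotation were lower than most of those above. Of 7 genes, 5 were detected in both libraries, led by Syt16 at 35.0 and 34.1 TPM, Syt12 at 14.7 and 16.4, Syt14 at 14.8 and 10.9 and Syt10 at 8.02 and 7.66. Syt15 and Syt8 were under 1 TPM. Between the libraries, 3 of the 5 were higher in replicate 2 beyond counting error and 1, Syt14, was lower, at -0.31 (interval -0.42 to -0.19), beside 28.4% and 14.2% of all genes. Syt16 therefore stood above Syt2, Syt3 and Syt17 by mean TPM, a comparison of means for which intervals were not compared.

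Relatives with paired or multiple C2 domains were led by Rph3a, the Rab3 effector rabphilin, at 139 and 133 TPM. Sytl2, which links Rab27 to membranes, was at 40.5 and 33.0 TPM, and Esyt2, a tether between endoplasmic reticulum and plasma membrane, at 30.7 and 25.2. Doc2a, a high-affinity sensor of spontaneous and asynchronous release, was at 21.8 and 24.0 TPM. Of the 12 genes listed, 9 were detected in both libraries, and of the 6 with a mean count of at least 100, 3 had a count ratio above 0 beyond counting error and 2 below, beside 28.4% and 14.2% of all genes. Rph3a was among the 3, although its TPM was lower in replicate 2.

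The partners of synaptotagmin in release were all detected, 13 of 13. Snap25, the SNARE protein that Syt1 contacts, was highest at 1459 and 1409 TPM, followed by Vamp2, the vesicle SNARE, at 498 and 470. By scaled counts, the intervals of 8 of the 13 lay above 0 in replicate 2 and those of 2 below, beside 28.4% and 14.2% of all genes, none by 1.5-fold, and the median log2 ratio was 0.06.

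Genes of dense core vesicles, the cargo route of Syt4 and Syt13, were all detected too, 8 of 8. Cpe, a carboxypeptidase of prohormone processing, was highest at 858 and 841 TPM, followed by the granin Chgb at 125 and 120 and Scg3 at 122 and 114. By scaled counts, 6 of these 8 had an interval above 0 in replicate 2 and 1 below, beside 28.4% and 14.2% of all genes, none by 1.5-fold, with a median log2 ratio of 0.09. The TPM of Snap25, Vamp2, Cpe, Chgb and Scg3 was lower in replicate 2 although their count ratios lay above 0.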

How the data were processed

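Total RNA of 2 libraries in 1 group was described (300 ng of RNA each with ERCC spike-ins, per the labels). The assembly was mm10 (GRCm38), per the labels, with GENCODE M21 as annotation, per the file lists that were deposited; the sources used here do not give the aligner, the versions or the use of strand. Alleles of the B6 and CAST parents were not separated. The gene table and 1 transcript table have the RSEM layout and a second transcript table the kallisto layout, per the file headers. The authors' expected counts, and the estimated counts of the second table, are not normalized. The deposited TPM values are per length, with each library scaled to a common total. The deposited percent columns give each transcript's share of its gene, and shares in the text were computed from deposited TPM.

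Counts were rounded, 0.5 was added and libraries were scaled by TMM (edgeR 4.0.16, R 4.3.3), with size factors of DESeq2 1.42.0, spike-ins, total counts and the second table as alternatives. Intervals of ratios are 95% exact Clopper-Pearson intervals from the 2 counts. They were tried on simulated counts drawn independently, with the library scaling known. That setting meets their assumptions, so it does not show how well they cover these reads. Background genes are nuclear and protein-coding with a mean count of at least 100. Starts were grouped within 100 bases.

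The genes and lists were chosen with earlier results of these data known. All 10 synaptotagmins are named, with the 4 highest by mean TPM of the other synaptotagmins and of the C2 relatives, and the 3 highest and any past 1.5-fold of release partners and dense core vesicle genes; 1 gene under this rule is not reported here. Marker genes named, and Syt8 and Syt15, fall outside that rule and were chosen after their values were seen. The RefSeq promoter table matched 5 of the 10 genes by symbol. Protein sequences were not used here.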

Additional observations from a re-analysis of the deposited data

How the results depend on the processing

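No paired analysis was possible because there is 1 group. The precision is limited by 2 libraries and by counts as low as 439 for Syt6. The second quantification gave a summed level of 1978 TPM, a Syt1 share of 44.6% and a median leading share of 63.5%. The higher level was not particular to these genes. Mean TPM was 1434 for Snap25 and 2276 in the second quantification, 572 and 840 for Slc17a7, 389 and 558 for Mbp, and 850 and 1328 for Cpe. Expected counts not divided by length gave a sum of 3143 per 1000000 annotated counts and 46.3% for Syt1. Leaving out each replicate in turn gave a sum of 1235 to 1302 TPM, a Syt1 share of 40.5% to 42.7%, 5 to 6 separated neighbours, 7 to 8 genes with 1 leading transcript and a median leading share of 60.8% to 62.5%. The order by intervals could not be computed for the second quantification or for counts, which have no intervals. The count of members differing beyond counting error was 7 with TMM, DESeq2 size factors and the second quantification, and 6 with spike-ins and with total counts. Of the 11647 background genes, 42.6% differed with TMM, 42.5% with DESeq2 size factors and 49.9% in the second quantification. With spike-ins 41.2% did, and with total counts 38.9%. In the second quantification all 7 members were higher, beside 38.0% of background genes higher and 11.9% lower. The count of members past 1.5-fold was 0 in each setting, beside 1.41% to 1.96% of background genes, and 0 members were past 2-fold. The direction of single ratios depended on scaling where they lay near 0. Spike-ins turned Syt1 to -0.0863, Syt13 to -0.0148 and Syt3 to -0.03, total counts turned Syt1 to -0.00629, and the second quantification turned Syt7 to 0.000513, Syt2 to 0.003 and Syt6 to 0.04. Calls were lost for Syt13 and Syt4 (0.04) with spike-ins, Syt1 with total counts and Syt7 in the second quantification. Calls were gained for Syt2 (-0.16) with spike-ins and Syt3 (0.15) in the second quantification. Without a filter on low counts, 31.3% of 17294 background genes differed beyond counting error.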
